A study of Mus musculus with 35 samples.

Results

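The transcripts described here encode 7 regulators of chromatin, transcription, signalling or DNA repair: Kmt5a, Dot1l, Rara, Zfpm1, Fam53b, Numbl and Mgmt. They are 7 of 32544 genes counted in 35 hippocampal RNA libraries, each from 1 mouse. They were chosen by their measured difference between IAKA and PBS mice at 2 weeks in these same libraries, so the 2-week values are given as a description with no test.

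IAKA mice were adult male C57BL/6JOlaHsd mice in which kainic acid, an agonist of glutamate receptors, was injected into the amygdala to set off status epilepticus, and lorazepam was given afterwards. PBS mice of the same strain had the vehicle injected. Hippocampi were taken 24 hours or 2 weeks later. Every group shares the strain background. Total RNA (input) was sequenced from 3 PBS and 4 IAKA mice at 24 hours and from 3 PBS and 6 IAKA mice at 2 weeks. RNA recovered with an antibody against N6-methyladenosine (m6A) was sequenced from 3 PBS and 5 IAKA mice at 24 hours and from 5 PBS and 6 IAKA mice at 2 weeks. Levels are given in CPM, each gene's count scaled by the total count of its library.

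Kmt5a adds a single methyl group to lysine 20 of histone H4, a mark tied to chromosome compaction and the cell cycle. Dot1l methylates lysine 79 of histone H3 and works beside the transcription elongation machinery. Rara is a nuclear receptor that switches genes on when it binds retinoic acid. Zfpm1 (also called FOG1) is a zinc finger cofactor of GATA factors that recruits the NuRD chromatin complex. Fam53b takes part in the nuclear entry of β-catenin in Wnt signalling, Numbl is a relative of the Notch inhibitor Numb, and Mgmt removes alkyl groups from guanine in damaged DNA. The mark m6A is placed on RNA in the nucleus, and the CPM of a gene in an m6A library depends on how much of its RNA there is as well as on how much of that RNA the antibody held.

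The input libraries held 3171 to 12694434 counts. At 24 hours 3 of them (PBS mice 71 and 73 and IAKA mouse 97) had under 100000 counts and were left out, which left 1 PBS library at that time. The m6A libraries held 1652933 to 34564536 counts. In 3 libraries mitochondrial transcripts took 16.4% to 17.5% of counts, against 1.41% to 11.1% in the other libraries used, and those 3 also detected the most genes, 27003 to 28574 against 16813 to 25717. They are the input and m6A libraries of IAKA mouse 8 at 24 hours and the m6A library of IAKA mouse 6 at 2 weeks. Markers of hippocampal neurons were present in every group, with none of the 9 at 0 and a summed level of 891 to 5119 CPM. Library names fall into sets by their prefix, and what the sets stand for is not given in the sources used here.

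In input RNA at 2 weeks, 6 of the regulators were higher in all 6 IAKA libraries than in all 3 PBS libraries, and Mgmt was lower in all 6. Among all 13752 genes tested, 2.64% lay wholly above and 3.8% wholly below in the same way. Since this contrast picked the members, nothing is read from their count. In bulk tissue, a change in the number of cells of a type and a change in RNA per cell cannot be told apart.

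The histone methyltransferases come first. Kmt5a measured 28.4, 27.1 and 25.0 CPM in PBS mice 2, 3 and 4, and in the 6 IAKA mice its lowest, median and highest values were 36.3, 48.7 and 56.1 CPM. Its PBS libraries lay close together and the IAKA library nearest to them was that of mouse 5. The fitted log2 fold change was 0.84 (SE 0.15, n = 6 and 3). Dot1l measured 34.2, 24.8 and 26.6 CPM in the same PBS mice and 37.2, 48.0 and 52.2 CPM (lowest, median, highest) in IAKA mice. Here the gap was narrow, with PBS mouse 2 just under IAKA mouse 6, and the log2 fold change was 0.75 (SE 0.14).

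Of the transcription regulators, Rara had the largest difference and the lowest counts. It measured 2.44, 3.99 and 1.92 CPM in the PBS mice, from 11, 14 and 11 counts, and 6.74, 9.15 and 13.1 CPM (lowest, median, highest) in IAKA mice, from 22 to 92 counts. The IAKA libraries fell into a lower trio (mice 5, 6 and 21) and a higher trio (mice 7, 9 and 42), both above every PBS library. The log2 fold change was 1.84 (SE 0.33), a fold of 3.58. Zfpm1 measured 9.33, 8.55 and 5.59 CPM in PBS mice and 12.9, 16.2 and 21.2 CPM in IAKA mice, with a log2 fold change of 1.14 (SE 0.23). Mouse 42 held the highest Rara and the highest Zfpm1 value.

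Fam53b measured 14.9, 8.27 and 11.4 CPM in PBS mice 2, 3 and 4 and 19.7, 20.9 and 26.9 CPM (lowest, median, highest) in IAKA mice. Its IAKA libraries were tight apart from mice 5 and 9, and the log2 fold change was 0.98 (SE 0.19). Numbl measured 25.8, 24.0 and 31.1 CPM in PBS mice and 39.6, 45.6 and 54.2 CPM in IAKA mice, with a log2 fold change of 0.81 (SE 0.16).

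Mgmt, the DNA repair enzyme, went the other way. It measured 14.0, 21.1 and 19.6 CPM in PBS mice 2, 3 and 4. In the IAKA mice its lowest, median and highest values were 2.74, 6.07 and 9.97 CPM, from 17 to 78 counts. Mice 6 and 9 were lowest and mouse 7 highest, still under every PBS library. Its log2 fold change of -1.67 (SE 0.33) corresponds to a level 3.19 times lower.

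**Figure D1:**
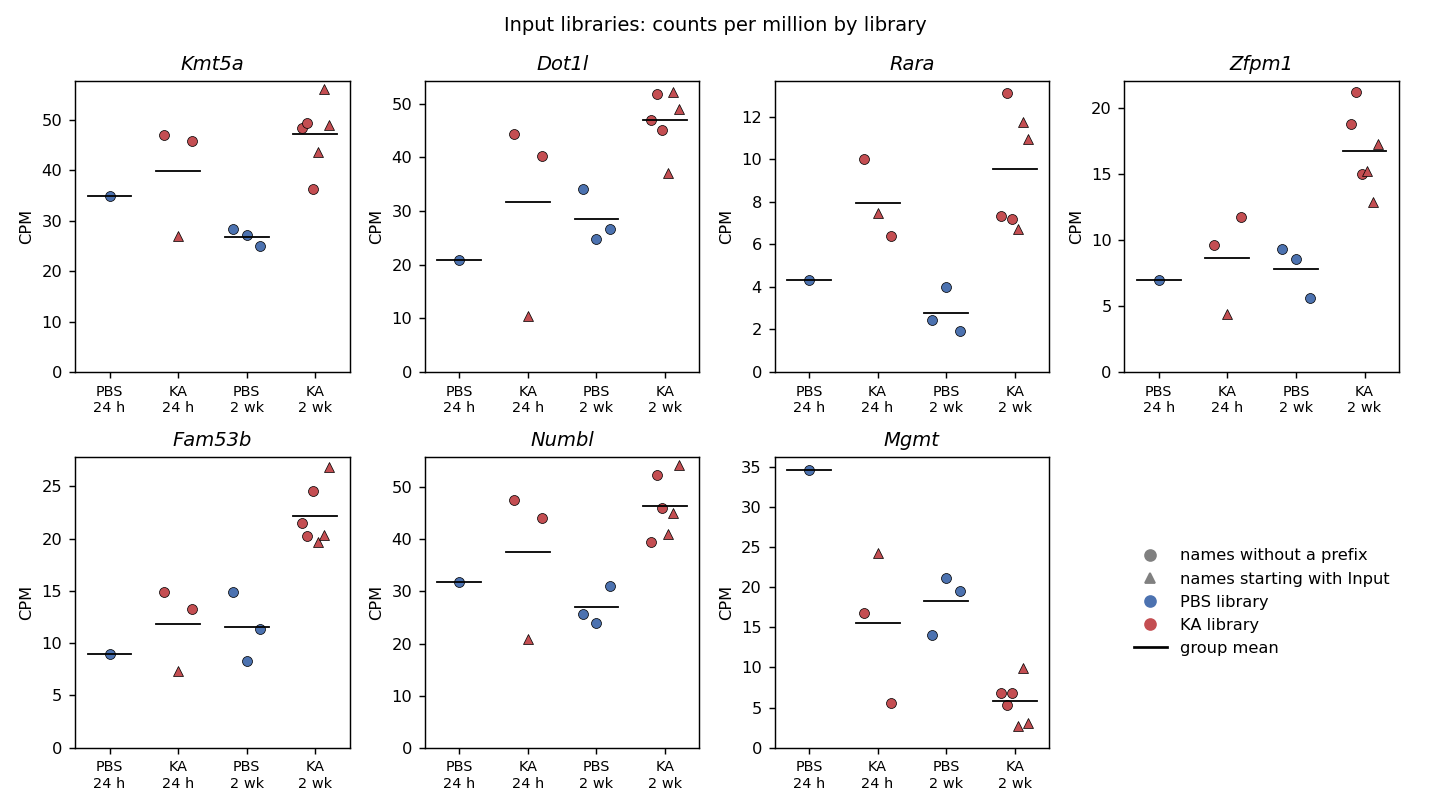
Level of each gene in input libraries with 100000 or more counts, in CPM (y axis, linear from 0), by treatment and time (x axis). Each point is the library of 1 mouse, its shape gives the library set, and the bar is the group mean. At 2 weeks the IAKA (KA) points lie above the PBS points for 6 genes and below them for Mgmt, whose IAKA values run from 2.74 to 9.97 CPM.

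All 3 PBS libraries at 2 weeks belong to the set whose names have no prefix, as do those of IAKA mice 5, 21 and 42, while IAKA mice 6, 7 and 9 belong to the other set. Within the shared set the 3 IAKA libraries again lay wholly above the 3 PBS libraries for the same 6 genes and wholly below for Mgmt, where 6.73% of all genes tested lay above and 11.9% below. The ratio of mean CPM there ran from 1.66 (Kmt5a) to 3.31 (Rara), and was 0.348 for Mgmt. DESeq2 called 116 genes in this contrast (0.844% of those with an adjusted P), the 7 members among them. edgeR's quasi-likelihood test called 0 genes (0%), with 1938 at an unadjusted P under 0.05. This describes how the genes were selected and is no evidence about them.

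In the same contrast the markers of 3 cell types all had a fold change above 0. The other lists were mixed: inhibitory neuron (4 of 6 above 0), oligodendrocyte (5 of 6), endothelial cell (4 of 5), choroid plexus (3 of 5), thalamus (2 of 3) and blood (3 of 4). Astrocyte markers (7 genes, 7 with a fold change above 0) summed to 2041 to 4270 CPM in PBS and 3144 to 7346 CPM in IAKA mice. Microglia markers (7 of 7 above 0) summed to 86.1 to 124 and 114 to 266 CPM, and hippocampal neuron markers (9 of 9 above 0) to 1466 to 2476 and 1775 to 3554 CPM. None of these markers was at 0 in a whole group, the sums of all 3 lists overlapped between treatments, and their part in the regulators' values was not tested. DESeq2 called 3 of the markers in this contrast, all higher in IAKA mice: Gfap, an astrocyte filament gene (log2 fold change 2.50, SE 0.46 in edgeR), and the complement genes C1qb (1.34, SE 0.33) and C1qa (1.48, SE 0.39), which microglia express. Their adjusted P was 0.000731, 0.0196 and 0.0235 in DESeq2 and 0.202, 0.242 and 0.242 in edgeR.

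Promoters are shown for Rara and Mgmt because they had the largest difference in each direction. RefSeq (GRCm38.p6) lists 15 promoter windows for the 7 genes. For each gene the listed window furthest upstream was taken, and these 7 have a GC content of 62.0% to 78.4% over the 250 bases before their start site, against a median of 52.4% over 32817 windows of all genes. The GC box GGGCGG, searched on both strands with overlapping matches counted, is in all 7 of them and in 12 of the members' 15 windows, and in 32.7% of the windows of all genes. The windows of all genes were not limited to expressed genes or to the furthest upstream. These shares and GC contents are therefore not like for like. The windows belong to listed transcript starts, which need not be the first base of the gene: those of Rara, Zfpm1 and Numbl lie inside the gene's span and those of Dot1l and Mgmt run past its first base. Printed are the bases of each window before the gene's span or, for Rara, before the first match to a GENCODE transcript. Both sequences run 5′ to 3′ on the plus strand, with GC boxes (GGGCGG or its complement CCGCCC) in capitals.
Rara, chr11:98937446-98937602: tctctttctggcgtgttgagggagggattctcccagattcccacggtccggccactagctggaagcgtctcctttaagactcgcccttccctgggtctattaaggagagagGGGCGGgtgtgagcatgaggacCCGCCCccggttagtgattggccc
Mgmt, chr7:136894336-136894462: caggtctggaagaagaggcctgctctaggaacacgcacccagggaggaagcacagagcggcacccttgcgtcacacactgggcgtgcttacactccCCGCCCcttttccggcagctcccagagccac

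Rara and Mgmt hold 4 such boxes each in their 250-base windows, 2 and 1 of them in the stretches printed. Whether the boxes bear on the level of either gene was not tested. A match here is a run of letters and not a mapped binding site. The genes themselves lie at chr5:124439930-124462311 (Kmt5a), chr10:80755101-80795461 (Dot1l), chr11:98927800-98974942 (Rara), chr8:122281856-122337862 (Zfpm1), chr7:132712084-132813848 (Fam53b), chr7:27258438-27282150 (Numbl) and chr7:136894463-137128193 (Mgmt) of GRCm38.p6.

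At 24 hours the mice were other animals, so here the members could be tested. The 3 IAKA libraries (mice 8, 67 and 98) were set against the single PBS library of mouse 1. Rara measured 7.46, 10.0 and 6.40 CPM in the IAKA mice and 4.33 CPM in the PBS mouse, and Mgmt 24.2, 16.7 and 5.63 CPM against 34.7 CPM. Rara was thus above the control in all 3 libraries and Mgmt below it in all 3, with 10.6% of all 18918 genes tested wholly above and 30.8% wholly below. For the other 5 genes IAKA mouse 8 lay under the control and mice 67 and 98 above it. Dot1l, for example, measured 10.5 CPM in mouse 8, 44.4 and 40.2 CPM in mice 67 and 98 and 20.8 CPM in the control, and Numbl 20.9, 47.7 and 44.0 CPM against 31.9 CPM. Kmt5a ran from 27.0 to 46.9 CPM around a control of 35.0 CPM, Zfpm1 from 4.44 to 11.8 CPM around 7.01 CPM, and Fam53b from 7.36 to 14.9 CPM around 8.98 CPM.

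By edgeR's quasi-likelihood test 0 of the 7 genes passed at 24 hours in input (0% of all genes, 432 at an unadjusted P under 0.05), with an adjusted P of 0.991 for each. None of the 7 had an unadjusted P under 0.05, and DESeq2 called none of them and 12 genes in all. The log2 fold change of Rara was 1.16 (SE 0.50) and that of Mgmt -0.82 (SE 0.80). With a single control, the fit assumes that PBS libraries vary like IAKA libraries, and since none of the 18918 genes passed, the lack of a call for these 7 says little about them.

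The fold changes moved with IAKA mouse 8, one of the libraries rich in mitochondrial transcripts. Without it, 2 IAKA libraries are set against the 1 control. The log2 fold change was then 1.23 (SE 0.19) for Dot1l and 0.73 (SE 0.18) for Numbl, against 0.84 and 0.48 with it. With the library set as a block, mouse 8, alone in its set, no longer bears on the difference, so this too rests on 2 IAKA libraries and 1 control. With 1 control, calls from either fit are not read as results about the members. In the set of names without a prefix, which holds the control and IAKA mice 67 and 98, 6 genes were above the control in both mice and Mgmt was below it in both, where 24.2% of all genes lay above and 57.8% below.

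In m6A libraries at 2 weeks none of the 7 genes separated the treatments. The 6 IAKA and 5 PBS libraries overlapped for all 7, while 0.26% of the 16157 genes tested lay wholly above and 0.334% wholly below. Kmt5a measured 38.3, 43.5, 45.3, 53.6 and 55.2 CPM in PBS mice 2, 3, 4, 50 and 78, and 28.5, 53.2 and 77.6 CPM (lowest, median, highest) in IAKA mice. Dot1l ran from 29.6 to 63.5 CPM in PBS and from 12.02 to 75.9 CPM in IAKA mice, and Numbl from 35.7 to 84.6 and from 21.0 to 84.1 CPM. For these 3 genes the spread within each treatment was wider than the distance between the medians. Rara measured 4.46, 4.27, 10.0, 15.4 and 15.5 CPM in PBS mice 2, 3, 4, 50 and 78, and 3.25, 9.74 and 22.0 CPM (lowest, median, highest) in IAKA mice. Fam53b measured 9.58, 10.3, 13.4, 24.3 and 17.3 CPM in the same PBS mice and 5.67, 15.4 and 28.1 CPM in IAKA mice. Both genes were highest, among PBS mice, in mice 50 and 78. The fitted log2 fold changes were 0.25 (SE 0.22) for Kmt5a, 0.06 (SE 0.36) for Dot1l, 0.22 (SE 0.44) for Rara, -0.47 (SE 0.53) for Zfpm1, 0.14 (SE 0.33) for Fam53b and -0.15 (SE 0.30) for Numbl.

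Mgmt in m6A libraries had the sign opposite to input. It measured 1.66, 4.03, 0.304, 1.01 and 0.975 CPM in PBS mice 2, 3, 4, 50 and 78, from 2 to 66 counts, and 1.53, 2.79 and 7.84 CPM (lowest, median, highest) in IAKA mice, from 37 to 268 counts. The highest value was that of mouse 6, the library rich in mitochondrial transcripts. The log2 fold change was 1.25 (SE 0.57), and it ran from 0.72 to 1.92 when each library was left out in turn.

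Part of the m6A spread followed the library sets. Numbering the sets by the prefix in their names, at 2 weeks set 3 holds IAKA mice only (5, 6 and 42), set 4 PBS mice only (50 and 78), and set 5 both (IAKA mice 7, 9 and 21, PBS mice 2, 3 and 4). Zfpm1 measured 51.7 and 48.0 CPM in the PBS mice of set 4 and 10.2, 13.4 and 14.1 CPM in those of set 5. Within set 5 the IAKA values of Zfpm1 were 17.7, 10.7 and 18.9 CPM, and with the set as a block its log2 fold change turned from -0.47 to 0.37. Numbl turned from -0.15 to 0.15, Rara moved from 0.22 to 0.89, and Mgmt moved from 1.25 to 0.55. Within set 5, Fam53b was the gene with all 3 IAKA libraries (13.7 to 15.9 CPM) above all 3 PBS libraries (9.58 to 13.4 CPM), where 3.95% of all genes lay wholly above and 7.24% wholly below.

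**Figure D2:**
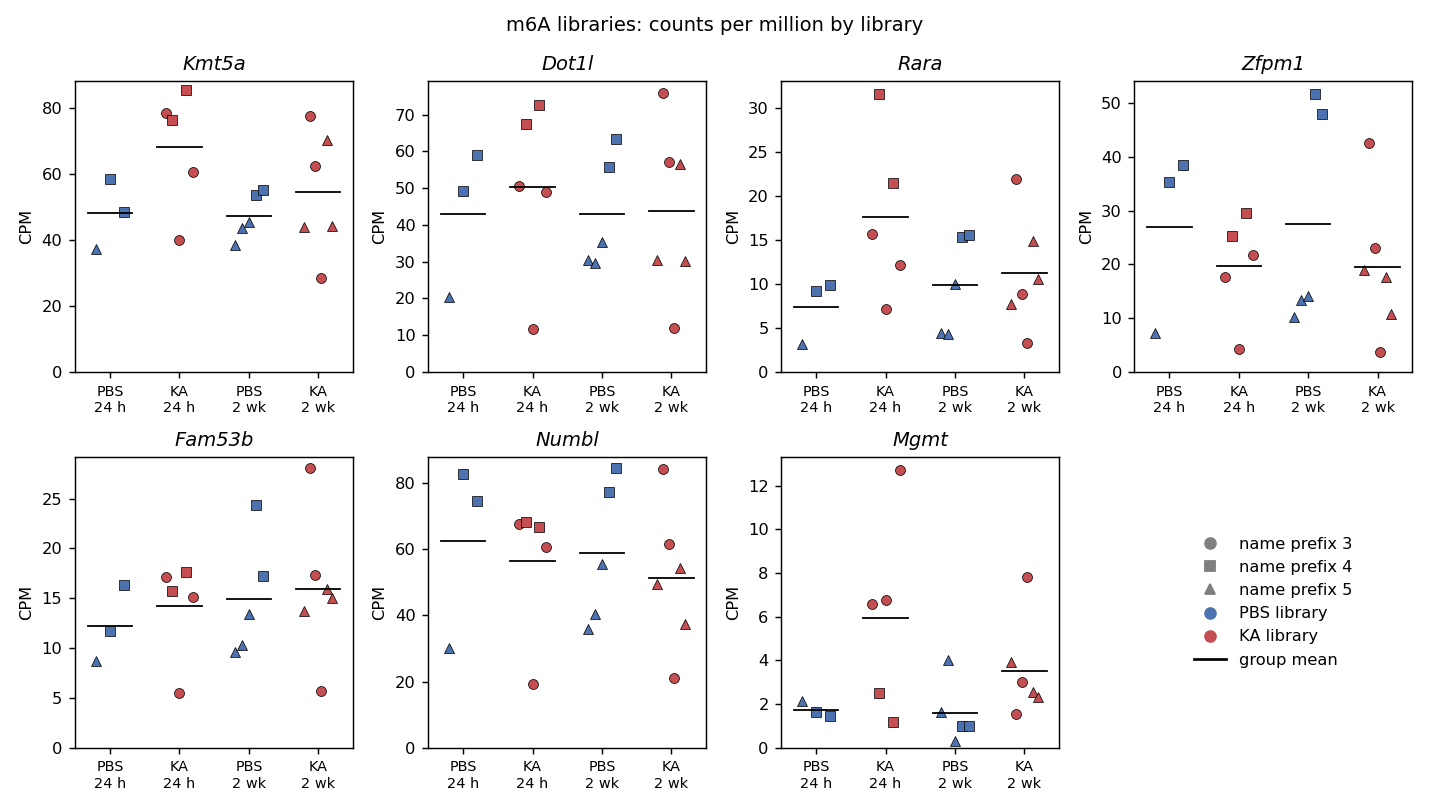
Level of each gene in m6A libraries, in CPM (y axis, linear from 0), by treatment and time (x axis). Each point is the library of 1 mouse, its shape gives the library set, and the bar is the group mean. PBS and IAKA (KA) points overlap for all 7 genes at both times, and the PBS squares of set 4 sit high for Zfpm1, at 51.7 and 48.0 CPM at 2 weeks.

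At 24 hours the m6A libraries of 5 IAKA and 3 PBS mice also overlapped for all 7 genes (2.62% of the 16470 genes tested lay wholly above, 1.09% wholly below). Rara measured 3.17, 9.25 and 9.87 CPM in PBS mice 1, 71 and 73 and 7.20, 15.7, 31.6, 21.5 and 12.1 CPM in IAKA mice 8, 67, 79, 97 and 98. IAKA mouse 8 alone fell within the PBS range. Mgmt measured 2.14, 1.65 and 1.43 CPM in the PBS mice and 6.75, 6.57, 2.50, 1.19 and 12.7 CPM in the IAKA mice, with mouse 97 under every control and the rest above. Kmt5a measured 37.3 to 58.4 CPM in PBS and 40.0 to 85.2 CPM in IAKA mice, and Dot1l 20.4 to 59.1 and 11.6 to 72.6 CPM. Zfpm1 ran from 7.31 to 38.4 and from 4.23 to 29.6 CPM, Fam53b from 8.71 to 16.3 and from 5.49 to 17.6 CPM, and Numbl from 30.0 to 82.6 and from 19.1 to 68.1 CPM. The lowest PBS value of each of these 5 genes was that of mouse 1 and the lowest IAKA value that of mouse 8. edgeR's quasi-likelihood test passed 0 of the 7 (0.00607% of all genes, 1 gene) and DESeq2 passed none of them, while 2 of the 7 had an unadjusted P under 0.05, as did 5.31% of all genes. These were Rara (log2 fold change 1.19, SE 0.48, adjusted P 0.847 in edgeR) and Mgmt (1.74, SE 0.74, adjusted P 0.893 in edgeR).

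Set 4 holds PBS mice 71 and 73 and IAKA mice 79 and 97 at that time. Within it Kmt5a, Dot1l and Rara were higher in both IAKA mice and Zfpm1 and Numbl lower in both, where 35.7% of all genes lay wholly above and 16.1% wholly below. The ratio of mean CPM was 2.78 for Rara and 1.198 for Mgmt, whose IAKA values of 2.50 and 1.19 CPM lay on either side of the controls. With the set as a block, the log2 fold change of Mgmt over all 8 libraries moved from 1.74 to 0.16 (SE 0.55).

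**Figure D3:**
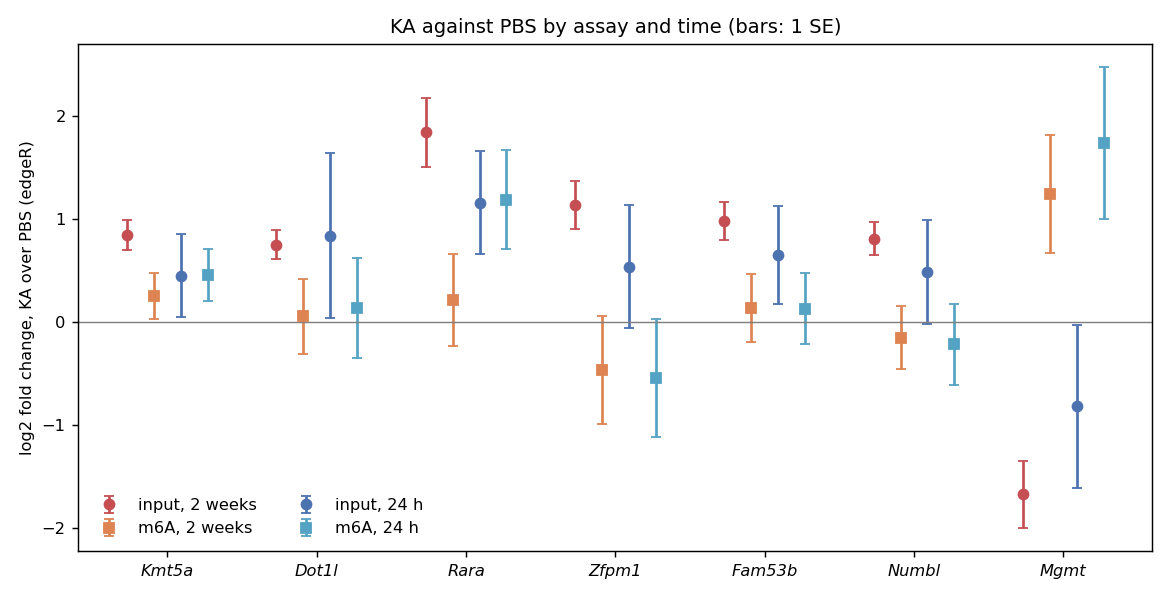
Log2 fold change of IAKA (KA) over PBS from edgeR (y axis) for each gene (x axis), with bars of 1 SE, in input and m6A libraries at 2 weeks and 24 hours. Input values at 2 weeks chose the genes. Mgmt is at -1.67 in input and 1.25 in m6A at 2 weeks, and the other genes lie between -0.47 and 0.25 in m6A at 2 weeks.

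The m6A and input libraries of the same mouse could be set against each other in 13 mice. Input and m6A libraries come from different library sets, so assay and set cannot be told apart. The 2-week libraries in this contrast are those on which the genes were selected, so values that include them are a description with no test. In the 4 PBS mice with both (mouse 1 at 24 hours and mice 2, 3 and 4 at 2 weeks), Mgmt measured 34.7, 14.0, 21.1 and 19.6 CPM in input and 2.14, 1.66, 4.03 and 0.304 CPM in m6A. Every m6A value was under every input value. The ratio of m6A to input within a mouse was 0.0618 in mouse 1, which took no part in the selection, and 0.118, 0.191 and 0.0155 in mice 2, 3 and 4. The m6A value of mouse 4 rests on 2 counts. Over genes, its m6A and input deviations from the group means correlated at 0.01.

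The fitted log2 difference of Mgmt in PBS mice was -3.59 (SE 0.48), a level 12.02 times lower in m6A, and with the mouse as a replicate block it was -3.71 (SE 0.41). Mgmt was 1 of the genes that edgeR called in this contrast (2.06% of 15109 genes, 1.24% as lower in m6A), and since its high PBS input helped to select it, nothing is read from that call. The other 6 genes had log2 differences of -0.28 (Fam53b) to 0.53 (Rara). Kmt5a and Zfpm1 had a ratio above 1 in all 4 PBS mice, at 1.07 to 1.81 and 1.04 to 2.53. With library size scaling, which CPM uses, the median log2 difference of all genes was positive there, so 1 is not a neutral ratio. The fitted log2 differences were 0.28 (SE 0.14) for Kmt5a and 0.35 (SE 0.26) for Zfpm1.

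In the 6 IAKA mice at 2 weeks, the ratio of m6A to input for Mgmt was 0.440, 2.86, 0.256, 0.771, 0.571 and 0.289 in mice 5, 6, 7, 9, 21 and 42. The m6A library of mouse 6 is rich in mitochondrial transcripts. Over genes, its deviations from the group mean correlated with those of its input library at 0.08. All 6 ratios lay above the 4 of the PBS mice, and the low IAKA input on which Mgmt was selected is the denominator of these ratios. How many of all genes separate in this way was not counted, so nothing is read from the gap. In the 3 IAKA mice at 24 hours the ratio was 0.279, 0.393 and 2.26 in mice 8, 67 and 98. The m6A values of mice 67 and 98 rest on 13 and 21 counts. These ratios also lay above the 4 of the PBS mice, but the high input of PBS mice 2, 3 and 4 helped to select Mgmt. At 24 hours the only PBS ratio is that of mouse 1. Its m6A library is in set 5 and those of the 3 IAKA mice are in set 3. Treatment and set cannot be told apart there.

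Across the 6 IAKA mice at 2 weeks, edgeR passed 2.64% of 15413 genes and none of the 7 members. Fam53b had a log2 difference of -0.70 (SE 0.25), -0.81 (SE 0.22) with the mouse as a replicate block, and its ratio was 0.288 to 1.38, under 1 in all but 1 mouse. The high IAKA input on which Fam53b was selected is the denominator here, so its values are a description. As in PBS mice, 1 is not a neutral ratio. The difference of Mgmt was -0.81 (SE 0.42), and -1.48 (SE 0.32) without mouse 6, the library rich in mitochondrial transcripts. In the 3 IAKA mice at 24 hours, which took no part in the selection, none of the 7 passed in edgeR (0% of all genes) or in DESeq2, and none had an unadjusted P under 0.05. Since edgeR passed none of the 14029 genes tested, the lack of a call there says little about these 7. The log2 difference of Mgmt there was -1.21 (SE 0.63).

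**Figure D4:**
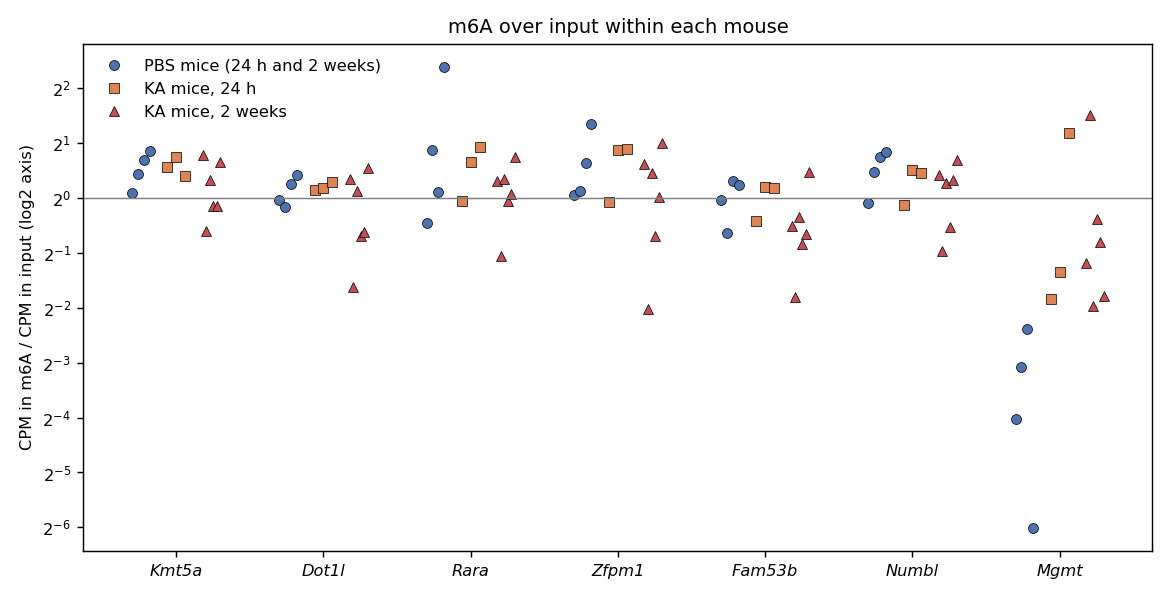
Ratio of CPM in the m6A library to CPM in the input library of the same mouse (y axis, log2 scale) for each gene (x axis), in 4 PBS mice, 3 IAKA (KA) mice at 24 hours and 6 at 2 weeks. Each point is 1 mouse. The ratios of Mgmt are 0.0155 to 0.191 in PBS mice and 0.256 or more in IAKA mice. The 2-week input values in these ratios chose Mgmt, so the gap is a description.

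Levels of the 6 genes that were higher in IAKA input varied together from mouse to mouse in m6A libraries. After each group's mean was taken off, the 15 pairs of these genes had Pearson r of 0.86 to 0.97 (median 0.91) over 19 m6A libraries, and the 6 pairs with Mgmt had r of -0.71 to -0.49. These points share depth, library set and each library's composition, so r is a description. Without the 2 libraries rich in mitochondrial transcripts, in which each of the 6 genes had its group's lowest value, the ranges were 0.69 to 0.95 and -0.66 to -0.34 over 17 libraries. Over all 19 libraries, with set means taken off as well as group means, they were 0.80 to 0.96 and -0.68 to -0.35. In input libraries the pairs were looser, with a median r of 0.64 over 13 libraries and 0.27 over the 12 without IAKA mouse 8.

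Among 16045 genes, those whose log2 CPM followed each member most closely over the 19 m6A libraries were as follows, with r over the 13 input libraries beside it. Kmt5a went with Fbln2 (0.92, input 0.51) and Dnajb5 (0.92, input 0.78), and Rara with St6galnac4 (0.94, input 0.82) and Dnajb5 (0.93, input 0.72). Dot1l went with Myo9b (0.98, input 0.95) and with Tet3, a DNA demethylating enzyme (0.95, input 0.89). Zfpm1 went with the synaptic scaffold gene Shank3 (0.97, input 0.85) and with Numbl (0.97, input 0.80), and Numbl with Iqsec3 (0.98, input 0.86) and Zfpm1. Fam53b went with Iglon5 (0.92, input 0.87) and Fmnl1 (0.92, input 0.86). Mgmt went with Gm13423 (0.94, input 0.93) and B4galt3 (0.92, input 0.65). No group or set means were taken off here, and the libraries rich in mitochondrial transcripts were kept in both assays. These r are therefore a description.

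The wider pathways of these regulators were followed through 8 lists with 164 entries. They cover H4K20 methylation (11 genes), Dot1l and elongation complexes (13), other histone methylases and demethylases (38), retinoic acid signalling (23), FOG, GATA and NuRD (20), Numb and Notch (22), FAM53 and Wnt (19) and repair of alkylated and damaged bases (18). In none of the 4 comparisons of IAKA with PBS did edgeR's quasi-likelihood test pass a listed gene in either direction. Over all genes tested, it passed 0 of 18918 in input at 24 hours and 0 of 13752 at 2 weeks. In m6A libraries it passed 1 of 16470 at 24 hours and 0 of 16157 at 2 weeks. The lack of calls thus says little about the lists. The entries tested numbered 158 and 146 in input at 24 hours and 2 weeks, and 160 in m6A at each time. At an unadjusted P under 0.05 there were 2 (1.27%) in input at 24 hours, 22 (15.1%) in input at 2 weeks, 5 (3.12%) in m6A at 24 hours and 4 (2.50%) in m6A at 2 weeks. Over all genes tested the shares were 2.28%, 14.1%, 5.31% and 5.01%.

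In input at 2 weeks the median log2 fold change was 0.14 over the listed genes and 0.02 over all genes. By list, the medians were 0.02 for H4K20 methylation (6 of 10 above 0), 0.08 for Dot1l and elongation complexes (8 of 13), 0.08 for other histone methylases and demethylases (25 of 38) and 0.10 for FAM53 and Wnt (11 of 18). They were 0.22 for FOG, GATA and NuRD (12 of 16), 0.37 for retinoic acid signalling (14 of 19), 0.39 for Numb and Notch (15 of 19) and -0.12 for repair (5 of 13). Among the listed genes with the smallest P there was Kdm6b, a demethylase of lysine 27 of histone H3 (log2 fold change 0.95, SE 0.25, adjusted P 0.242 in edgeR). DESeq2 called it, at an adjusted P of 0.0435, as 1 of 2 listed genes called in this comparison, both higher, and called none in the other 3.

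At 24 hours in input the median was 0.18 over the listed genes and 0.30 over all genes, which scaling by library size alone lowered to 0.02. Among those with the smallest P was the Notch receptor Notch3 (2.17, SE 0.56, adjusted P 0.991 in edgeR). In m6A libraries the smallest P at 24 hours belonged to Hes5, a Notch target (-2.48, SE 0.69, adjusted P 0.499 in edgeR), and Rbpj, the DNA-binding partner of Notch (0.73, SE 0.24, adjusted P 0.630 in edgeR). At 2 weeks it belonged to Aldh1a3, a retinoic acid synthesizing enzyme (1.52, SE 0.48), and L3mbtl1, a reader of H4K20 methylation (-0.81, SE 0.31), each with an adjusted P of 0.875 in edgeR. The m6A medians over the listed genes were -0.06 at 24 hours and -0.09 at 2 weeks, against 0.08 and -0.00 over all genes.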

How the data were processed

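Hippocampal input and m6A libraries were made with a stranded total RNA kit. The deposited files (15) hold raw counts by gene symbol for each of 4 sequencing lanes, with no normalization by the authors. The submitters' processing notes name the genome build mm10, and which aligner and counting program were run is not given here. Lanes were summed to 35 libraries. Of these, 8 carry the assay in their column names, and for 27 it was inferred from a numeric prefix (m6A) or its absence (input). Another 8 columns were not used.

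Groups were compared with edgeR 4.0.16 in R 4.3.3 (TMM, filterByExpr, robust quasi-likelihood fit, Benjamini-Hochberg adjustment over all genes tested, threshold 0.05), in input libraries with 100000 or more counts and all m6A libraries. SEs follow from the fold change and its F statistic. Fitting was tested on simulated data. Alternatives were DESeq2 1.42.0, other scaling and filters, the library set or the mouse as a block, and each library left out. The labels tie input and m6A libraries to 1 animal, and over 12 mice their deviations from the group means correlated at 0.01 to 0.83 (median 0.44). Likeness was Pearson's r of log2 CPM (prior count 2). The named genes are the 7 members, the 2 listed genes with the smallest P in each comparison and the 2 genes most like each member, of which some are not reported here. Members and lists were chosen with earlier results of these data known. P-values measure the spread between mice, and counts limit precision. Tables and plots were made in Python 3.11.15.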

Additional observations from a re-analysis of the deposited data

Results flagged for a closer look

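In the 5 m6A libraries of IAKA mice at 24 hours, mouse 8 stood apart from the others. Fam53b measured 5.49 CPM there and 15.1 to 17.6 CPM in the other 4, and Numbl measured 19.1 CPM there and 60.5 to 68.1 CPM in the other 4. The gap to the nearest library passed Dixon's limit for 5 values in 2 of the 28 gene and group pairs examined, and about 1 in 20 would pass it by chance. Mitochondrial transcripts took 16.4% of counts in that library, and their part in these values was not tested.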

How the results depend on the processing

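The 2-week input fold changes of the 7 genes kept their sign in all 112 refits, and those in m6A libraries in 113 of 126. The input contrast chose the genes, so their steady sign there is a description and no evidence about them. Counts of genes called by edgeR were less steady. In input at 24 hours (0 called) DESeq2 gave 12, no filter 3, the set block 2783 and all labelled libraries 75, with 0 to 1914 when each library was left out. There the number of members past the threshold also moved with the setting, and with 1 PBS library nothing is read from it. In m6A at 24 hours (1 called) the counts were 156, 3 with library size scaling, 22 with no filter and 0 with the set block, and 0 to 45 with a library left out. In input at 2 weeks (0 called) they were 116, 4 with no filter, 16 with PBS mouse 1 added and 0 to 1 with a library left out. In m6A at 2 weeks (0 called) they were 15, 2 with no filter, and 0 to 1.

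For m6A against input, DESeq2, library size scaling and the mouse as a replicate block gave 1035, 869 and 166 genes in PBS mice (312 in the fit reported, 35 to 360 with a mouse left out), and 962, 1347 and 1339 in IAKA mice at 2 weeks (407, and 15 to 621). In IAKA mice at 24 hours (0 called), DESeq2 gave 21, the replicate block 20 and a mouse left out 0 to 628. At 2 weeks 1 member passed with the replicate block, and 0 to 1 with a mouse left out, in libraries that chose the members, so the count is a description. Library size scaling moved the median log2 difference of all genes from -0.01 to 0.22 in PBS mice, from -0.01 to 0.19 in IAKA mice at 2 weeks and from 0.01 to 0.28 at 24 hours.

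Small log2 values that did not pass changed sign. With library size scaling this was so for Dot1l in PBS mice (0.12), for Kmt5a (0.21), Zfpm1 (0.22) and Numbl (0.15) in IAKA mice at 2 weeks, and for Dot1l (0.21) and Fam53b (0.0449) at 24 hours. With no filter it was so for Kmt5a (0.0485) and Zfpm1 (0.0522) at 2 weeks, and with the replicate block for Rara at 2 weeks (-0.13) and Numbl at 24 hours (-0.00539). With a mouse left out, the m6A against input ranges were -0.0882 to 0.92 for Rara in PBS mice, -0.12 to 0.0856 for Kmt5a, -0.18 to 0.12 for Rara, -0.34 to 0.18 for Zfpm1 and -0.23 to 0.0422 for Numbl in IAKA mice at 2 weeks, and -0.21 to 0.00928 for Dot1l and -0.0530 to 0.13 for Numbl at 24 hours. In m6A at 24 hours, IAKA against PBS ran from -0.20 to 0.50 for Dot1l and from -0.0668 to 0.44 for Fam53b. The cause was not tested. Low counts limit Mgmt in m6A libraries, where 1 PBS library held 2 counts.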
